A study of Mus musculus with 20 samples.

Results

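The subject is a set of 33 genes that encode the machinery by which secreted and membrane proteins enter the endoplasmic reticulum (ER) and receive their first glycans. The genes were listed by complex: 6 of the signal recognition particle (SRP) and its receptor, 8 of the translocon, 4 of the translocon-associated protein complex (TRAP), 5 of signal peptidase and 10 of oligosaccharyltransferase. All 33 were among the 16047 genes of the deposited matrix, and they were described across the authors' annotated cell states and across the sort gates. The cells were eYFP-positive B cells and plasma cells from lymph nodes of C57BL/6 mice immunised with the hapten-carrier NP-KLH in Sigma Adjuvant System. They were taken on day 15 of the primary response, 4 days after tamoxifen. The labels give neither the driver that switches eYFP on nor the number of mice. All groups share strain, tissue, immunisation, tamoxifen and day, and they differ in state, gate or sampleID.

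Single cells were index-sorted into plates and read by FB5P-seq, a plate-based method that counts the 5′ ends of transcripts with molecular tags. The matrix held 1367 cells on 20 plates, 10 plates labelled C57BL/6M and 10 labelled C57BL/6F. The annotation named 480 plasma, 63 memory-like pre-plasma, 29 activated pre-plasma, 17 pre-memory, 48 light-to-dark zone, 278 light zone and 452 dark zone cells, and the gates held 393 plasma, 282 pre-plasma, 367 light zone and 325 dark zone cells. Comparisons set plasma cells, pre-plasma cells and germinal centre B cells (dark, light and light-to-dark zone) against each other on counts summed per plate. These sums are called pools below, and a pool needed 5 cells. Levels are CPM, a gene's counts scaled to a common library total, with TMM factors, and differences are log2 fold changes ± SE from edgeR's quasi-likelihood test, called at a Benjamini-Hochberg adjusted p under 0.05 over all genes tested. P-values measure the spread between plates, which need not be separate animals.

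In the textbook account, SRP binds the signal sequence of a nascent chain and docks the ribosome at the ER through its receptor. The Sec61 channel then threads the chain across or into the membrane, helped for some substrates by TRAP, TRAM proteins and Sec62 with Sec63. Signal peptidase removes the signal sequence, and oligosaccharyltransferase moves a preassembled glycan from a dolichol carrier onto asparagine. Mammals have a pair of catalytic oligosaccharyltransferase subunits: STT3A works beside the translocon during translocation, and STT3B acts on sites that were skipped and on finished chains. Plasma cells secrete antibody at high rates, and the transcription factor XBP1 raises many genes of this pathway in them through promoter elements with an ACGT core or a CCACG box.

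Promoter letters were therefore read for the members. The RefSeq promoter table (GRCm38.p6, 250 bases before to 50 after each start) held 25 of the 33 members. Srp19, Srp68, Sec61a1, Tram1, Ssr2, Spcs3, Sec11c and Ostc had no entry and were not searched. Motifs were searched on both strands: ERSE (CCAAT and CCACG with a fixed spacer), ERSE-II (ATTGG, any 1 base, CCACG), UPRE (TGACGTGG), the box CCACG and the box CCAAT, where both boxes are contained in ERSE and in ERSE-II. ERSE and UPRE matched 0 of the 25 members, and 0.137% and 0.714% of the 27025 genes in the table. ERSE-II matched 1 member, Krtcap2, and 0.0444% of all genes. The Krtcap2 match begins at base 18 after the start, and the other Krtcap2 window, chr3:89246188-89246487, does not hold it. CCACG stood in 17 of 25 members (68%) and in 35.5% of all genes, and CCAAT in 13 members (52%) and in 41.1% of all genes. A match is a description of letters in this window only. Promoters of 4 members are shown because the results below turn on their genes: Krtcap2 for its ERSE-II, Tram2 for the steepest difference in level, and Stt3a with Stt3b because this pair moved in opposite directions. Capitals mark ERSE-II in Krtcap2, CCACG (or CGTGG on the other strand) in Tram2, and CCACG with CCAAT (or ATTGG) in Stt3a and Stt3b. The windows are chr3:89246223-89246522 on the plus strand for Krtcap2, and on the minus strand chr1:21079176-21079475 for Tram2, chr9:36767573-36767872 for Stt3a and chr9:115310419-115310718 for Stt3b.
Krtcap2: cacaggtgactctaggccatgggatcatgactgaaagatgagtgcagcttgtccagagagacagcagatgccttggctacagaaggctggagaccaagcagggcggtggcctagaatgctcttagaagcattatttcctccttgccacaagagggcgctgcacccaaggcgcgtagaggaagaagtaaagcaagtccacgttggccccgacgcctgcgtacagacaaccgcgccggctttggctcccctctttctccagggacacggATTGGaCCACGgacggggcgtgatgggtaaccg
Tram2: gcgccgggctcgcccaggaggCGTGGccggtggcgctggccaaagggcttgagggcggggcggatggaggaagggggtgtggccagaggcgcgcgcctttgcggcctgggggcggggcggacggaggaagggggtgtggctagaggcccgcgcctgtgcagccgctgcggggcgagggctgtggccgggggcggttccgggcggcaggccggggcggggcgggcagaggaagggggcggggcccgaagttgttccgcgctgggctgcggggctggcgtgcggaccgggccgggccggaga
Stt3a: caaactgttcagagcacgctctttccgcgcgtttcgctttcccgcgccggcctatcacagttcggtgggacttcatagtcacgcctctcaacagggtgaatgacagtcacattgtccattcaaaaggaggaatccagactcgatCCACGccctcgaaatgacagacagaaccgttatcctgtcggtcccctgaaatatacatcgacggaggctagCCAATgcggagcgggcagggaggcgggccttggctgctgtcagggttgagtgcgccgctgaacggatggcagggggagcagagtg
Stt3b: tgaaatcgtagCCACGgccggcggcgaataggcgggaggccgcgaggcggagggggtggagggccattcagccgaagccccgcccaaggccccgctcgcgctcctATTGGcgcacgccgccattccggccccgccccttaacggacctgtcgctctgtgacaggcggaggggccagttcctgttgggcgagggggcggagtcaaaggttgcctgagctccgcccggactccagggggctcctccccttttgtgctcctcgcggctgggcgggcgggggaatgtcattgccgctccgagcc
Both catalytic subunit genes hold 1 CCACG and 1 CCAAT box, at bases -106 and -35 from the start in Stt3a and at -239 and -145 in Stt3b.

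Libraries were checked before the results. Of the 20 plates, 19 held between 3208858 and 11908095 counts, and plate 6 of C57BL/6F held 10 cells with 5979 counts in all. Apart from alternative fits, that plate entered the comparisons with annotated pre-plasma pools and the sampleID comparison in germinal centre B cells, and its cells are in the numbers of cells with a count and the sums over states. Listed plasma cell markers, such as Xbp1 and Prdm1, were called higher in the plasma state than in germinal centre B states for 8 of 8 genes, and the 6 germinal centre and 6 B cell markers were called lower. Among markers of other cells, the summed level of 7 T cell genes reached at most 7.72 CPM in plasma pools, 140 CPM in pre-plasma pools and 12.3 CPM in germinal centre pools, with a median of 0 in each, and the 5 myeloid genes at most 38.3, 13.2 and 16.0 CPM in the same order. The 6 stromal and endothelial genes summed to between 16.1 and 91.9 CPM in plasma pools, 0 and 261 CPM in pre-plasma pools, and 0 and 127 CPM in germinal centre pools. The 5 red cell genes had a median of 0 in plasma pools and 25.8 CPM in germinal centre pools. Their part in the results was not tested. Tags of 5 bases set a ceiling on the count of a gene in a cell, and no member reached it: the highest count was 803, for Sec11c. Median depth was 70190 counts per plasma cell and 54434 per germinal centre B cell, and 75.6% of plasma cells against 37.1% of germinal centre B cells were in G1 by the authors' call.

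The first comparison asks how the machinery of plasma cells differs from that of the germinal centre B cells beside them. Over 19 plates with both classes, 31 of the 33 members were called higher in the plasma state and 1, Stt3b, lower, and Sec61a2 was not called. Among 7649 genes tested, 15.1% were higher by the same call, 15.8% lower and 30.9% either way. The median member difference was 2.47 on the log2 scale, against -0.25 over all genes tested. In 20 of the 33 members the lowest plasma pool lay above the highest germinal centre pool, as it did in 2.94% of all genes tested. The 33 genes together took 3.32% of all counts in plasma cells and 0.692% in germinal centre B cells. The state names may rest on these same transcripts, in which case this comparison describes the states, so the gates of the fluorescence sort were tested as well.

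**Figure D1:**
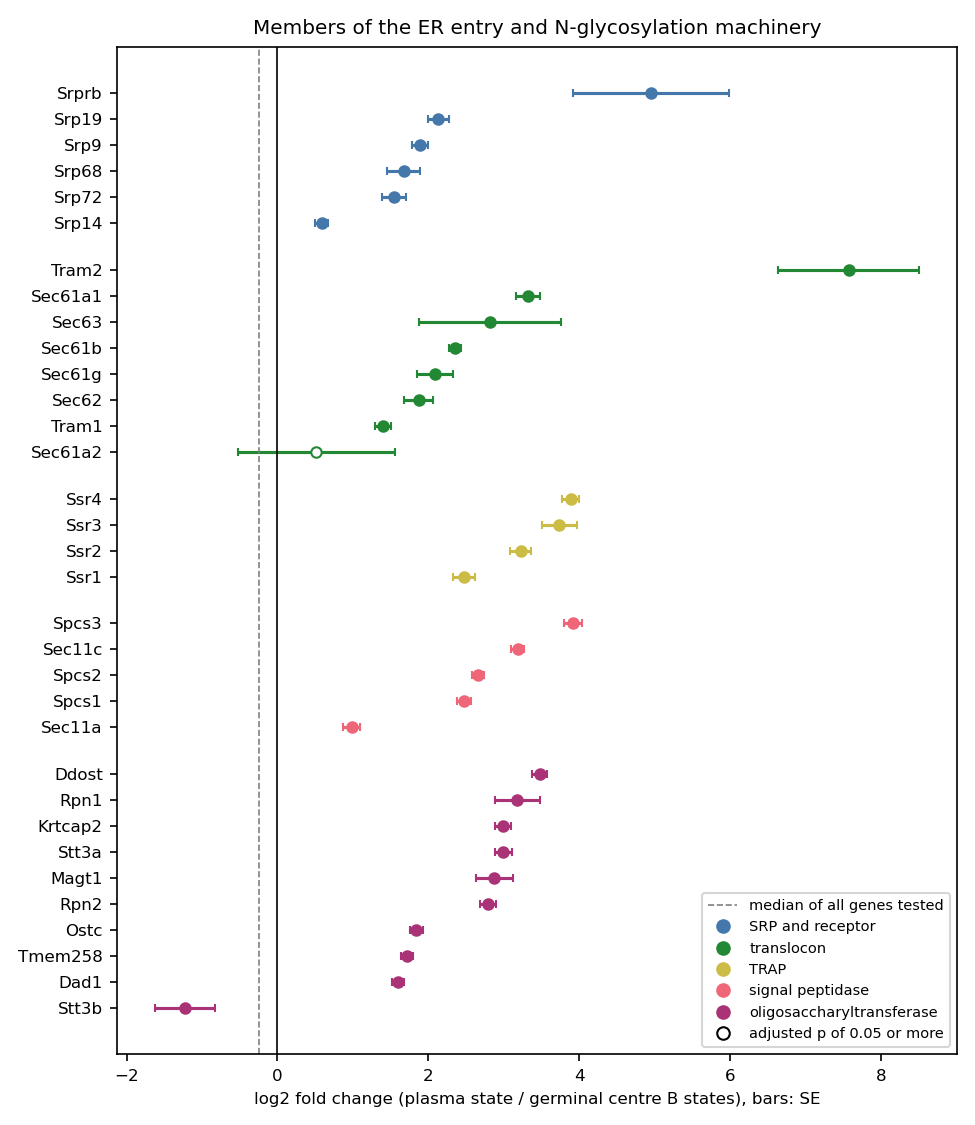
Log2 fold change of each of the 33 members, plasma state over germinal centre B states (points; bars, SE; n = 19 plates of each), grouped by complex. All but Stt3b, at -1.22, lie to the right of 0, Tram2 lies farthest at 7.57, and the open point of Sec61a2 was not called.

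The gates gave a like count. In the plasma gate against the germinal centre gates, 30 members were called higher and 0 lower, against a background of 13.6% higher, 21.3% lower and 34.9% either way among 6865 genes. The members' median was 2.77 log2 and that of all genes -0.50. Not called were Sec61a2, Sec63 (3.39 ± 1.49, adjusted p = 0.0807) and Stt3b (-1.35 ± 0.54, adjusted p = 0.0517). Stt3b was called lower under RLE scaling (-1.43, adjusted p = 0.0393) and by DESeq2 (-1.41, adjusted p = 0.00117), and Sec63 was called higher by DESeq2 (3.54, adjusted p = 7.50e-05) and in G1 cells (5.41, adjusted p = 0.00585). Gates and states share most of their cells, so the pair of counts is not independent.

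SRP and its receptor rose least among the 5 complexes by median, 1.78 log2, with 6 of 6 members called. Srp19, the SRP subunit that helps load the SRP54 protein, had a lowest, median and highest level of 425, 734 and 881 CPM in plasma pools, against 43.8, 166 and 242 CPM in germinal centre pools. These pools did not overlap, and the difference was 2.13 ± 0.13 log2 (adjusted p = 1.59e-12). Srprb, the membrane-anchored receptor subunit, had 0, 34.2 and 122 CPM in plasma pools and 0, 0.535 and 38.6 CPM in germinal centre pools. Its 4.95 ± 1.04 log2 was called (adjusted p = 0.000614), but the pools overlap and the gene was counted in 67 of 480 plasma cells and 17 of 778 germinal centre B cells. On C57BL/6F plates alone it was 2.94 ± 1.38 (adjusted p = 0.218). Srp14, which with Srp9 forms the Alu-binding end of SRP, moved least: 390, 564 and 802 CPM in plasma pools against 256, 386 and 506 CPM in germinal centre pools. It was higher in plasma cells on 19 of 19 plates although the ranges overlap (0.58 ± 0.08, adjusted p = 3.95e-06). Its partner Srp9 differed by 1.88 ± 0.10, and Srp68 and Srp72, which bind each other on the SRP RNA, by 1.67 ± 0.22 and 1.55 ± 0.16.

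Of the translocon, 7 of 8 members were called higher, with a median of 2.22 log2. Sec61a1, the main pore subunit, had 772, 1313 and 1840 CPM in plasma pools, against 41.6, 166 and 278 CPM in germinal centre pools. There was no overlap, and the level was 9.95-fold higher in plasma cells (3.31 ± 0.16, adjusted p = 5.76e-15). Sec61a2, the other pore isoform, had 0, 28.0 and 83.7 CPM in plasma pools against 0, 16.0 and 84.5 CPM in germinal centre pools, with full overlap, and was not called (0.51 ± 1.04, adjusted p = 0.752). The small subunits Sec61b and Sec61g differed by 2.35 ± 0.08 and 2.08 ± 0.24 log2, and the accessory genes Sec62 and Sec63 by 1.87 ± 0.19 and 2.82 ± 0.94. The call of Sec63 was lost within each sampleID alone, at 2.29 ± 1.35 (adjusted p = 0.266) on C57BL/6M plates and 3.32 ± 1.23 (adjusted p = 0.102) on C57BL/6F plates.

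Tram2, one of the TRAM chaperones beside the channel, gave the largest difference of the 33. Its plasma pools had 1.10, 167 and 274 CPM at the lowest, median and highest, against 0, 0.323 and 45.6 CPM in germinal centre pools. It was counted in 196 of 480 plasma cells and 19 of 778 germinal centre B cells, and was higher in plasma cells on 18 of 19 plates (7.57 ± 0.93, adjusted p = 3.82e-07). The exception was plate 2 of C57BL/6F, which held both the lowest plasma pool and the highest germinal centre pool. Tram1, the other family member, had 368, 663 and 988 CPM in plasma pools and 108, 251 and 367 CPM in germinal centre pools. Those ranges met almost end to end without overlap (1.40 ± 0.11, adjusted p = 7.02e-11).

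TRAP, a complex that assists the translocation of some signal sequences and contacts oligosaccharyltransferase, had the highest median of the 5 complexes, 3.48 log2, with 4 of 4 members called. Ssr4, its delta subunit, had 2449, 3123 and 4424 CPM in plasma pools against 120, 203 and 411 CPM in germinal centre pools. Ssr3, the gamma subunit, had 575, 813 and 1109 CPM in plasma pools against 1.46, 66.8 and 136 CPM in germinal centre pools. Neither overlapped, and they differed by 3.89 ± 0.11 (adjusted p = 3.82e-19) and 3.74 ± 0.24 log2 (adjusted p = 1.71e-12). Ssr1, the alpha subunit, moved least of the 4, with 47.4, 511 and 734 CPM in plasma pools against 11.8, 101 and 194 CPM in germinal centre pools, overlapping through plate 2 of C57BL/6F (2.47 ± 0.15, adjusted p = 5.90e-13). Ssr2 differed by 3.22 ± 0.14. Correcting each count for molecules that share a tag moved Ssr4 to 4.07 ± 0.12.

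Signal peptidase had 5 of 5 members higher, at a median of 2.66 log2, but its pair of catalytic subunits differed in size of response. Sec11c had 2653, 3744 and 5077 CPM in plasma pools, against 274, 417 and 658 CPM in germinal centre pools, without overlap (3.18 ± 0.08, 9.07-fold, adjusted p = 7.52e-20). Sec11a had 392, 561 and 862 CPM in plasma pools against 135, 272 and 415 CPM in germinal centre pools. Its ranges overlapped, with the plasma level higher on 19 of 19 plates, and the difference was 0.98 ± 0.12 (1.98-fold, adjusted p = 1.93e-07). Spcs3, the accessory subunit known in yeast to be needed for cleavage, had 761, 1207 and 1863 CPM in plasma pools against 34.3, 76.5 and 134 CPM in germinal centre pools (3.92 ± 0.12, adjusted p = 1.05e-18), the largest difference in the complex. The small accessory subunits Spcs1 and Spcs2 differed by 2.47 ± 0.09 and 2.66 ± 0.08.

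Oligosaccharyltransferase had 9 members higher and 1 lower, at a median of 2.83 log2. Ddost, a scaffold subunit, had 1580, 2098 and 2682 CPM in plasma pools against 91.0, 200.025 and 283 CPM in germinal centre pools (3.47 ± 0.10, adjusted p = 3.64e-19). Rpn1, ribophorin I, had 773, 1513 and 1889 CPM in plasma pools against 0, 183 and 304 CPM in germinal centre pools (3.18 ± 0.30, adjusted p = 3.48e-09). In both the pools stayed apart, and the 0 of Rpn1 was on plate 4 of C57BL/6F. Among other subunits, Rpn2 (2.78 ± 0.11), Krtcap2, which together with Ostc belongs to the STT3A form (2.99 ± 0.11), and Magt1, an oxidoreductase of the STT3B form (2.87 ± 0.24), lay near the upper end. Ostc (1.84 ± 0.09), Tmem258 (1.72 ± 0.08) and Dad1 (1.60 ± 0.08) lay at the lower end.

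The catalytic subunits went in opposite directions. Stt3a had 552, 1167 and 1407 CPM in plasma pools against 97.3, 139 and 240 CPM in germinal centre pools, with no overlap (2.99 ± 0.11, 7.94-fold, adjusted p = 5.15e-17). Stt3b had 0, 36.8 and 157 CPM in plasma pools against 28.3, 69.7 and 136 CPM in germinal centre pools, with wide overlap, and was higher in plasma cells on 3 of 19 plates (-1.22 ± 0.40, adjusted p = 0.0203). It was counted in 79 of 480 plasma cells and 171 of 778 germinal centre B cells. The call of Stt3b was lost on C57BL/6M plates alone (-0.74 ± 0.46, adjusted p = 0.293), on C57BL/6F plates alone (-1.83 ± 0.65, adjusted p = 0.0847) and in G1 cells (-0.56 ± 0.71, adjusted p = 0.636), always with a value below 0.

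**Figure D2:**
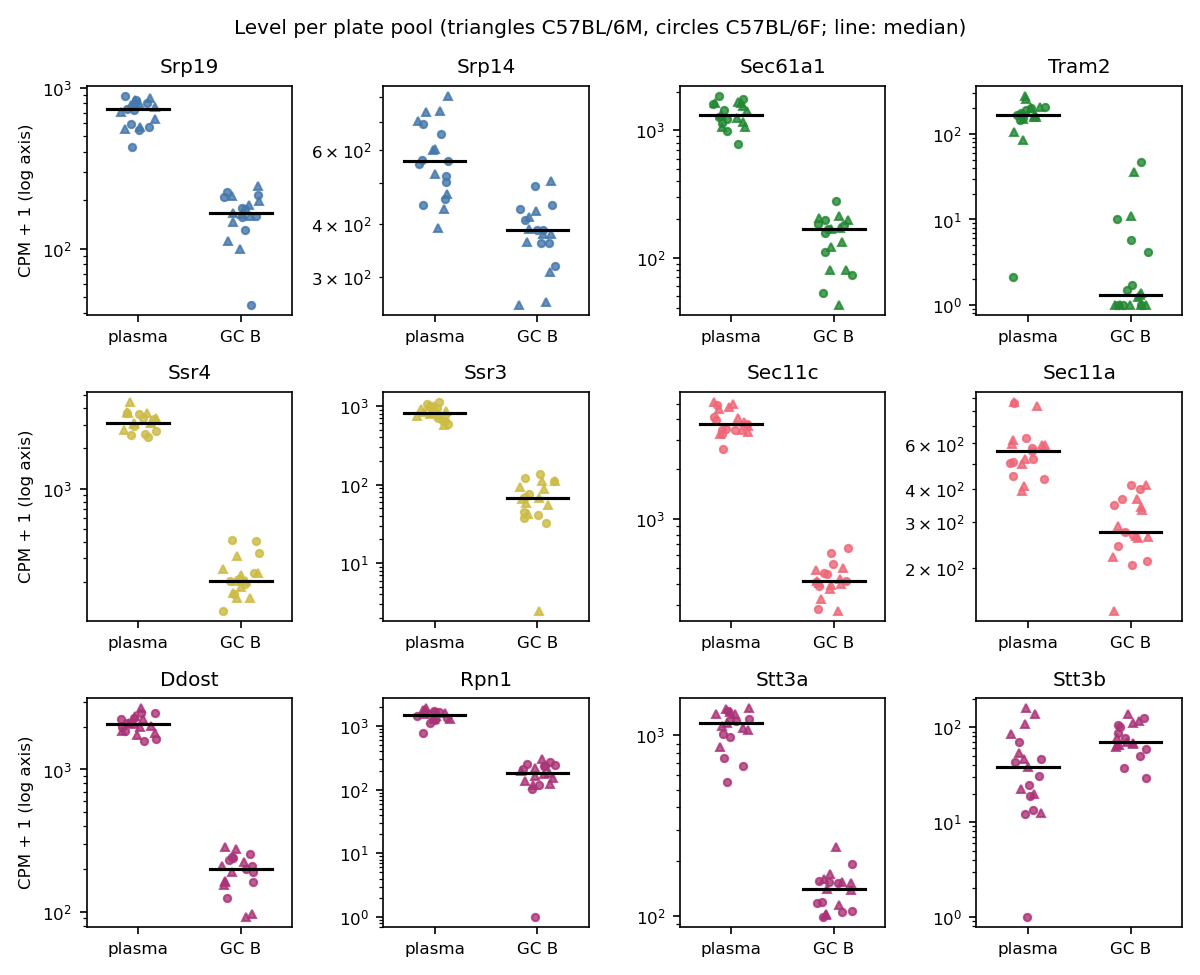
Level of 12 members in each plate pool (CPM + 1 on a log axis; left, plasma state; right, germinal centre B states; triangles C57BL/6M, circles C57BL/6F; lines, medians; n = 19 pools of each). Sec11c and Stt3a part the classes on every plate, whereas Sec11a and Srp14 overlap and Stt3b has its lower median, 36.8 CPM, in plasma cells.

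Ratios within 5 paralog pairs were compared plate by plate, as log2 of (CPM + 5) of the first gene over (CPM + 5) of the second. A ratio's own level depends on how each transcript is captured, so only its difference between classes is read. Stt3a over Stt3b had a mean of 4.78 ± 1.33 in plasma pools and 0.85 ± 0.54 in germinal centre pools (SD, n = 19 plates), a difference of 3.94 that was positive on 19 of 19 plates. Magt1 over Tusc3, a pair of alternative subunits of the STT3B form, had 4.52 ± 1.33 in plasma and 1.09 ± 1.47 in germinal centre pools, a difference of 3.43, also on 19 of 19 plates. Sec11c over Sec11a had 2.76 ± 0.33 in plasma and 0.57 ± 0.49 in germinal centre pools, a difference of 2.19 on 19 of 19 plates. For Sec61a1 over Sec61a2 the difference was 2.83 on 18 of 19 plates, and for Tram2 over Tram1 2.93 on 18 of 19. The difference for Tram2 over Tram1 depends on the added CPM, and was 4.44 with 1 CPM added and 1.56 with 20 CPM. With 1 CPM added, Sec61a1 over Sec61a2 was 2.75 on 15 of 19 plates and Magt1 over Tusc3 3.94 on 18 of 19. With 20 CPM added, these were 2.81 and 2.78, each on 19 of 19. A two-sided sign-flip permutation test over plates gave p-values, adjusted over the 5 pairs, of 7.00e-05 for Tram2 over Tram1 and 1.25e-05 for each of the others, where the raw p behind the last is the smallest that 100000 resamples can give. All 5 ratios had a mean difference in the same direction on C57BL/6M plates alone and on C57BL/6F plates alone. The ratios are built from the same levels as the differences above and are no independent result.

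**Figure D3:**
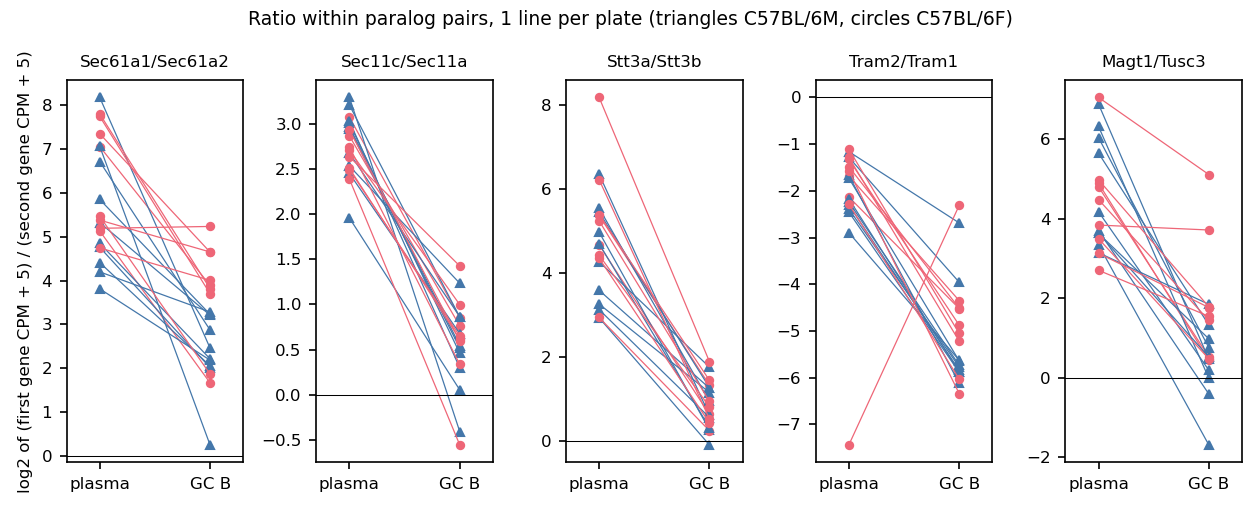
Log2 ratio within each of 5 paralog pairs per plate (left, plasma state; right, germinal centre B states; 1 line per plate, n = 19; blue triangles C57BL/6M, red circles C57BL/6F). Lines descend from plasma to germinal centre on every plate for Stt3a/Stt3b, Sec11c/Sec11a and Magt1/Tusc3, and 1 C57BL/6F plate runs the other way for Tram2/Tram1.

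The gates split the same span into a first step, from the germinal centre gates to the pre-plasma gate, and a second, from there to the plasma gate. In the first step 26 members were called higher and 1 lower in the pre-plasma gate, against a background of 7.09% higher, 8.14% lower and 15.2% either way among 7150 genes. The members' median was 1.64 log2 and that of all genes -0.19. Stt3b was the lower one (-1.87 ± 0.61, adjusted p = 0.0363), and its call was lost on C57BL/6M plates alone (-1.06 ± 0.66, adjusted p = 0.470), on C57BL/6F plates alone (-2.97 ± 0.98, adjusted p = 0.0944) and in G1 cells (-2.91 ± 2.13, adjusted p = 0.529). Not called were Srp14, Srp68, Srprb, Sec61a2, Sec63 and Tram1. TRAP, with 4 of 4 called and a median of 2.27, had the largest median of the complexes, and all 5 members of signal peptidase and all 10 of oligosaccharyltransferase were called. The pre-plasma gate is a mixture, in which more plasma cells and a higher level per cell cannot be told apart: it held 128 cells annotated plasma, 29 activated and 27 memory-like pre-plasma, 1 pre-memory, and 63 dark, 23 light and 11 light-to-dark zone cells.

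In the second step 26 members were called higher and 0 lower in the plasma gate against the pre-plasma gate, against a background of 8.42% higher, 9.69% lower and 18.1% either way among 6564 genes. The median was 0.96 log2 for the members and -0.27 for all genes. Ssr4 had the largest called difference after Tram2 (1.83 ± 0.10, against 3.01 ± 0.58), and Spcs3 (1.64 ± 0.11), Spcs1 (1.60 ± 0.09) and Sec11c (1.44 ± 0.08) followed. Sec11a was not called (-0.12 ± 0.14, adjusted p = 0.614), nor were Srprb, Sec61a2, Sec61g, Sec63, Ssr1 and Stt3b. Tested on cells with a count in place of counts, 7 members were called in this step, and in G1 cells alone also 7. Over all genes these fits called 131 and 109, against 1189 without these changes.

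Whether the steps differ in size was tested in 1 fit of the 3 gates over 19 plates, as first step minus second step. For 10 members the first step was larger and for 1 the second, against a background of 3.02% and 1.38%, or 4.40% either way, among 8071 genes. The median over members was 0.59 log2 and over all genes 0.24. Since the pre-plasma gate is the mixture given above, step size and its share of plasma cells cannot be told apart. Summing counts over a mixture of germinal centre and plasma cells can by itself give unequal log2 steps, and its part here was not tested. Ssr3 had the largest called value: its lowest, median and highest levels were 305, 844 and 1296 CPM in the plasma gate, 156, 405 and 636 CPM in the pre-plasma gate, and 0.801, 65.8 and 136 CPM in the germinal centre gates (1.77 ± 0.36, adjusted p = 0.000804). The pre-plasma pools lay above all germinal centre pools and overlapped the plasma pools. Stt3a had 376, 1199 and 1554 CPM in the plasma gate, 373, 644 and 910 CPM in the pre-plasma gate and 94.0, 143 and 242 CPM in the germinal centre gates (1.31 ± 0.19, adjusted p = 1.57e-06). Tram1 was the member with the larger second step: 413, 766 and 1131 CPM in the plasma gate, 159, 329 and 468 CPM in the pre-plasma gate, and 124, 276 and 341 CPM in the germinal centre gates (-0.79 ± 0.22, adjusted p = 0.0264). Its pre-plasma and germinal centre pools overlapped widely. The other members called for a larger first step were Srp19, Sec61a1, Sec61b, Sec61g, Ssr2, Spcs3, Ddost and Ostc, and under RLE scaling Sec61a1 was not called (adjusted p = 0.0548). The extreme estimates, 1.88 ± 1.15 for Tram2 and -2.06 ± 1.13 for Stt3b, were not called (adjusted p = 0.491 and 0.418). Spcs1, at -0.49 ± 0.17, was not called either (adjusted p = 0.107).

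**Figure D4:**
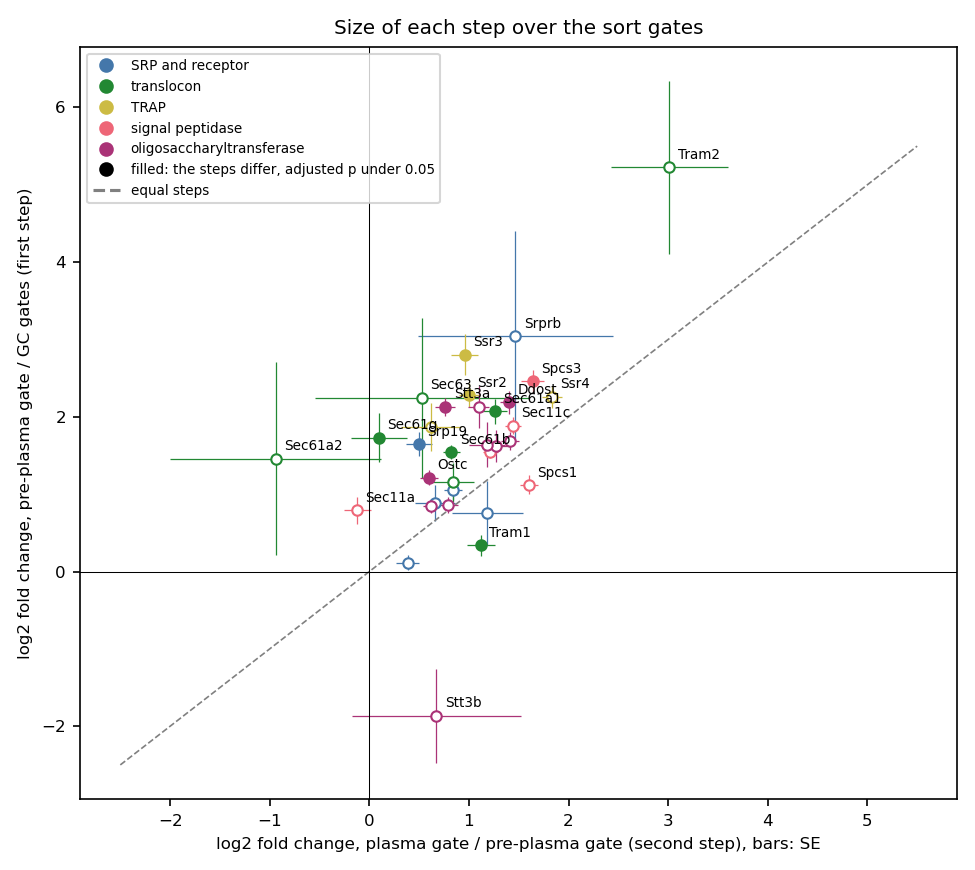
First step (pre-plasma gate over germinal centre gates, y axis) against second step (plasma gate over pre-plasma gate, x axis), both log2 fold changes with SE, 1 point per member (n = 19 plates); the dashed line marks equal steps and filled points are members whose steps differ. Filled points lie above the line except Tram1, whose second step was larger by 0.79, and Stt3b lies below 0 in the first step. The pre-plasma gate is a mixture of annotated states.

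Cells with the same annotation also differed by gate. Among cells annotated plasma, over 17 plates, 11 members were called higher and 0 lower in the plasma gate than in the pre-plasma gate, against a background of 4.67% higher, 1.28% lower and 5.95% either way among 5713 genes. The members' median was 0.53 log2 and that of all genes 0.24. Signal peptidase had 4 of 5 called, Spcs1 (1.16 ± 0.10, adjusted p = 1.58e-08), Spcs3 (1.08 ± 0.11), Sec11c (0.88 ± 0.08) and Spcs2 (0.72 ± 0.08), and Sec11a at -0.39 ± 0.16 was not (adjusted p = 0.217). DESeq2 called 11 members higher and 1 lower, Sec11a (-0.49 ± 0.16, adjusted p = 0.0169). Over all genes it called 868, against 340 by edgeR. The other members called by edgeR were Ssr4 (1.11 ± 0.11), Ddost (0.85 ± 0.08), Krtcap2 (0.81 ± 0.09), Tram1 (0.80 ± 0.17), Sec61a1 (0.66 ± 0.11), Rpn1 (0.54 ± 0.13) and Ssr2 (0.40 ± 0.10). None of the 6 SRP and receptor members was called. In this contrast 6 of 8 plasma cell markers were called higher, and of 4 B cell markers tested 1 was called higher and 2 lower, with a median of -0.99 log2. No member was called in G1 cells alone, in pools of at least 10 cells, or on cells with a count in place of counts. Over all genes these fits called 26, 8 and 4, against 340 without these changes. The G1 fit held 6 pools with a members' median of 0.49 log2 and the fit of larger pools 4 with 0.61, against 34 pools and 0.53 above. On cells with a count the median was 0.053.

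The annotated pre-plasma states were few, with 9 pools on 9 plates against 20 germinal centre pools. A pool summed the activated and memory-like cells of its plate. Median depth was 229910 counts per activated cell and 16638 per memory-like cell, so an activated cell weighed more where both were present. Of 32 members tested, 18 were called higher and 1 lower, against a background of 2.14% higher and 15.9% lower among 7942 genes, and the members' median was 1.13 log2 against -0.71 for all genes. TRAP (4 of 4) and signal peptidase (5 of 5) were called in full, the translocon in 2 of 8 and SRP with its receptor in 1 of 5. Oligosaccharyltransferase was called in 7 of 10, with 6 higher and Stt3b lower (-2.45 ± 0.80, adjusted p = 0.0245). Fitted with the plate as block, 8 members were called, among 177 genes called in all, against 1433 genes without the block. Plasma pools against these 9 pre-plasma pools gave 24 of 33 higher and 0 lower, against a background of 10.5% higher, 0.188% lower and 10.6% either way among 7451 genes, with medians of 1.32 log2 for members and 0.65 for all genes. The median of all genes depended on the pools: it was 6.13 in G1 cells and 4.51 in pools of at least 10 cells, above the members' medians there of 1.07 and 0.98. With plates as block, 11 members were called, among 92 genes called in all, against 793 genes without the block. Without the pools of plate 6, 20 members were called against germinal centre B cells, among 1519 genes called in all, against 1433 with them. In plasma pools against pre-plasma pools, 22 members were then called, among 862 genes in all, against 793.

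The 2 pre-plasma states were described separately, with no test, as summed CPM of each complex over all cells of a state. Activated cells stood between germinal centre and plasma cells for all 5 complexes: as a share of the plasma level, SRP and receptor reached 60.7%, oligosaccharyltransferase 49.8%, the translocon 48.0%, signal peptidase 43.7% and TRAP 36.0%. Memory-like cells stood at 67.4%, 62.2%, 67.9%, 120% and 68.4% in that order of complexes, so that only the signal peptidase sum passed the plasma level. Of the 63 memory-like cells, 33 were sorted in the plasma gate and 27 in the pre-plasma gate, whereas all 29 activated cells were in the pre-plasma gate. By sampleID the signal peptidase sum of memory-like cells was 92.6% of plasma in C57BL/6M (34 cells) and 167% in C57BL/6F (29 cells). Within oligosaccharyltransferase the memory-like cells had 27.6% of the plasma level of Rpn1 and 29.5% of Rpn2, beside 113% of Tmem258 and 89.6% of Ostc. Within TRAP they had 89.2% of Ssr4 and 44.9% of Ssr3, where activated cells had 21.0% and 43.2%. The states differ in depth, with a median of 16638 counts and 376 genes per memory-like cell, 229910 counts and 3691 genes per activated cell, and 70190 counts and 1510 genes per plasma cell. Immunoglobulin genes took 10.3% of counts in memory-like, 5.49% in plasma and 1.52% in activated cells. The part of depth, gate and immunoglobulin counts in these shares was not tested.

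**Figure D5:**
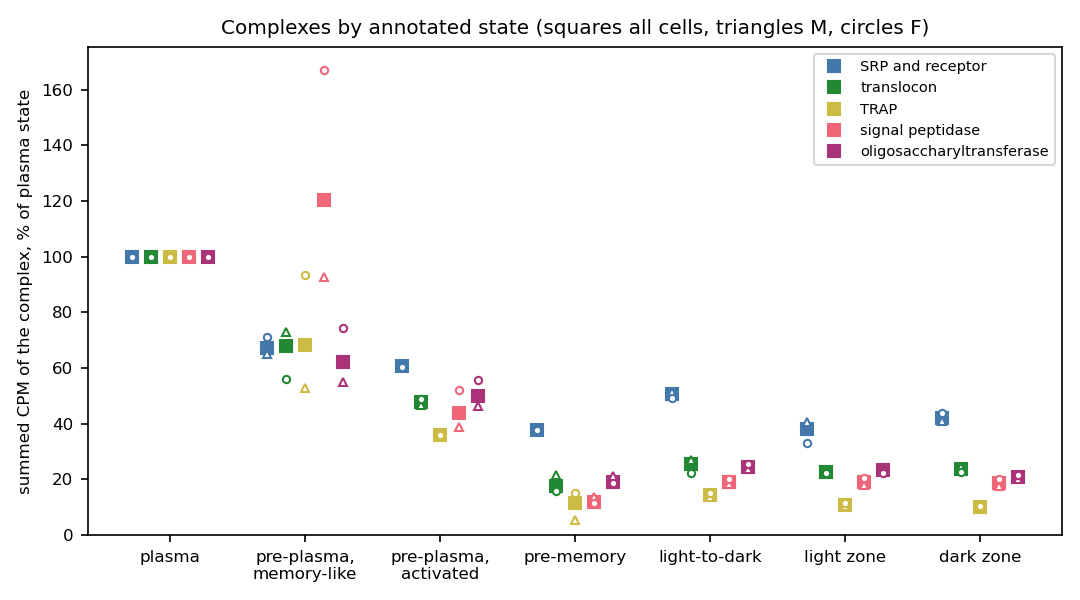
Summed CPM of each complex in the 7 annotated states as a percentage of the plasma state (squares, all cells; triangles, C57BL/6M; circles, C57BL/6F). Signal peptidase stands at 120% in memory-like pre-plasma cells, and in dark, light and light-to-dark zone and pre-memory cells the square of TRAP stands lowest of the 5 complexes. In the 17 pre-memory cells TRAP and signal peptidase stand at 15.0% and 11.4% in C57BL/6F, and at 5.26% and 13.5% in C57BL/6M.

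Inside the germinal centre no member was called between zones. Of the 29 members tested in the dark zone against the light zone state over 19 plates, edgeR called 0, where 1.41% of 5447 genes were called, and 0 had an unadjusted p under 0.05. DESeq2 on the same pools also called 0. Estimates ran from -0.36 to 1.16 log2, with a median of 0.07 for members and 0.44 for all genes. Differences of a size below the spread between plates could not be seen at this depth.

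Plates labelled C57BL/6M were set against those labelled C57BL/6F, class by class. SampleID, sex, animal and handling cannot be told apart here. In plasma cells 2 of 33 members were called higher and 0 lower in C57BL/6M, against a background of 0.873% higher, 0.0831% lower and 0.956% either way among 7216 genes. Tmem258, a small subunit of both oligosaccharyltransferase forms, had 990, 1500 and 2179 CPM in 10 C57BL/6M pools against 429, 673 and 1218 CPM in 9 C57BL/6F pools (1.08 ± 0.19, adjusted p = 0.00457). Sec62 had 119, 319 and 570 CPM in C57BL/6M pools against 73.8, 125 and 229 CPM in C57BL/6F pools (1.23 ± 0.28, adjusted p = 0.0268). Both overlapped. In germinal centre B cells Tmem258 was called again (0.94 ± 0.22, adjusted p = 0.0404), against a background of 0.539% higher, 0.0135% lower and 0.552% either way among 7423 genes, and Sec62 was not (1.39 ± 0.36, adjusted p = 0.0813). The difference between plasma and germinal centre B cells itself was tested for an interaction with sampleID: edgeR called 0 of 7649 genes, and among the members the lowest unadjusted p-values were 0.0116 for Spcs1 and 0.0147 for Sec11c, the only 2 of the 33 members under 0.05.

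Other genes of the pathway, taken as whole lists by function, were read in the plasma state against germinal centre B states. Of the remaining SRP genes, Srpr, the other receptor subunit (2.52 ± 0.19), and Srp54b, a copy of the signal-binding subunit (1.33 ± 0.18), were called higher, 2 of 2 tested. Srp54b has near-identical copies, so its counts are uncertain. Of the remaining oligosaccharyltransferase genes, Ost4 was called higher (1.48 ± 0.10) and Tusc3 was not called (-1.14 ± 0.90, adjusted p = 0.368). Between gates Tusc3 was called lower in the plasma gate than in the pre-plasma gate (-6.22 ± 1.29, adjusted p = 0.00111) and than in the germinal centre gates (-6.06 ± 1.32, adjusted p = 0.000864). It had a median of 0 CPM and 184 counts in the plasma gate, 36.8 CPM and 1274 counts in the pre-plasma gate, and 29.4 CPM and 1607 counts in the germinal centre gates.

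Upstream of the transferase, the dolichol and lipid-linked oligosaccharide list had 8 higher and 0 lower of 20 tested, at a median of 1.73 log2, beside 15.1% called higher and a median of -0.25 over all genes. Alg2, a mannosyltransferase of the glycan precursor (5.79 ± 0.87), and Alg5, which makes dolichol-phosphate glucose (2.71 ± 0.18), were the largest. Nucleotide sugar supply had 5 higher and 0 lower of 10, led by Gfpt1, the entry enzyme of the hexosamine pathway (4.22 ± 0.85), and Gmppb, which makes GDP-mannose (4.09 ± 0.71). Of the enzymes that trim the attached glycan, 3 of 4 tested were higher, led by Man1b1, the ER mannosidase (3.35 ± 0.63), and Ganab, the catalytic part of glucosidase II (2.03 ± 0.45).

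Other routes into the membrane were listed too. The ER membrane complex, an insertase for membrane proteins, had 3 higher and 0 lower of 9 tested, beside 15.1% of all genes higher and 15.8% lower, with Emc7 at 2.46 ± 0.16 and Emc4 at 0.95 ± 0.15. Its median was 0.84 log2 by state, but -0.37 in the plasma gate against the germinal centre gates, where all genes had -0.50. Tail anchor insertion, which handles proteins with a single membrane segment at their end, had 0 called of 6 tested, and its median was -0.21 log2, beside -0.25 for all genes. Of signal peptide peptidase genes 1 was tested, Sppl2a, and it was not called (1.21 ± 0.49, adjusted p = 0.0623).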

How the data were processed

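The authors deposited a matrix of whole-number molecule counts per gene and cell, not scaled, with a table of each cell's plate, gate, annotated state and cell cycle phase. STAR 2.5.3a, HTSeq 0.9.1 and mm10 are named in the submitters' processing notes. Cell filters, doublet treatment and use of strand are not given in the sources used here. The deposited spike-in share is a fraction and only described cells.

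Counts were summed per plate and class (at least 5 cells), scaled by TMM, filtered by filterByExpr and tested with edgeR 4.0.16 in R 4.3.3 (glmQLFit, glmQLFTest), tested first on simulated data. Plate was a block where the same plates held both classes, since pools of a plate share its preparation; pre-plasma states used class plus sampleID. DESeq2 1.42.0 was an alternative. SE is the absolute log2 fold change over the square root of F. Plates could not be matched to single samples of the labels. Paralog ratios used unscaled CPM.

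The members and lists were chosen with earlier results of these data known. Described in full were, per complex, the 2 largest and the smallest difference, the paralog pairs, the extremes of the step difference, and up to 2 called genes per other list. Other members, and Tusc3 between gates, were named after their values were seen. Alternatives on cells with a count, on counts corrected for shared tags and on RLE scaling of the step were chosen after seeing the data. The single-gene result of a B cell marker is not reported here.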

Additional observations from a re-analysis of the deposited data

Results flagged for a closer look

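Summed CPM of each complex, and the paralog ratios, were checked within each sampleID for a plate that stands apart from the others of its class, by the gap to its nearest neighbour over the whole range. Of 92 groups, 11 held such a plate. Chance gives about 1 in 20 for a single group, but the groups share plates, cells and genes and are not independent.

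Plate 2 of C57BL/6F stood apart in 3 groups. Its Tram2/Tram1 log2 ratio was -7.44 in plasma cells, with the next plate at -2.28, and -2.31 in germinal centre B states, with the next at -4.35. Its summed SRP and receptor level in germinal centre B states was 1293 CPM, with the next at 1017 CPM.

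Plate 16 of C57BL/6M stood high in 4 groups. All members summed to 8366 CPM in its germinal centre B states (next 7392 CPM) and to 8499 CPM in its germinal centre gates (next 7253 CPM). Its SRP and receptor sum in the pre-plasma gate was 2396 CPM (next 1871 CPM), and its oligosaccharyltransferase sum in the germinal centre gates was 3442 CPM (next 2823 CPM).

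Plate 11 of C57BL/6M was the lowest in the pre-plasma gate for the translocon, at 1584 CPM with the next at 2378 CPM, and for oligosaccharyltransferase, at 4278 CPM with the next at 6102 CPM. In the pre-plasma gate of plate 4 of C57BL/6F, signal peptidase summed to 7769 CPM, with the next at 5931 CPM. In germinal centre B states of plate 14 of C57BL/6M, the Sec61a1/Sec61a2 log2 ratio was 0.25, with the next at 2.01. What sets these plates apart was not tested.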

How the results depend on the processing

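For plasma cells against germinal centre B cells, by state or gate, and for the pre-plasma gate against the germinal centre gates, the number of members called stayed within 1.5 times its value under every alternative run, and the 5 paralog ratios kept their direction and call. The following counts moved, and the cause was not tested. For the plasma gate against the pre-plasma gate (26 called), G1 cells gave 7, C57BL/6F plates 14 and cells with a count 7. Over all genes these fits called 109, 302 and 131, against 1189 without an alternative. For pre-plasma states against germinal centre B states (19 called), the same alternatives gave 8, 10 and 9, and the plate as replicate block gave 8. Over all genes they called 689, 1534, 149 and 177, against 1433. For plasma against pre-plasma states (24 called), G1 cells, C57BL/6F plates and cells with a count gave 8, 6 and 0. The replicate block gave 11, RLE scaling 12, pools of at least 10 cells 14 and thinned cells 11. Over all genes these called, in that order, 868, 200, 11, 92, 647, 970 and 699, against 793. Within plasma-state cells by gate (11 called), G1 cells, pools of at least 10 cells and cells with a count each gave 0, and C57BL/6M plates 7. Over all genes these fits called 26, 8, 4 and 162, against 340. For C57BL/6M against C57BL/6F, leaving out immunoglobulin genes gave 4 in plasma cells (2 called), and in germinal centre B cells (1 called) G1 cells gave 0 and DESeq2 3. All genes called were 71 against 69 in plasma cells, and 6 and 101 against 41 in germinal centre B cells.

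Signs turned as follows, except that Stt3b kept its sign and lost its call. With no replicate block, Sec61a2 was 0.16 log2 in the plasma gate against germinal centre gates, against -0.12 with it, called in neither; Stt3b in plasma against germinal centre B states was -0.83 without the block (adjusted p = 0.0881 by edgeR), in a fit that also held the germinal centre pool of plate 6. In the plasma gate against the pre-plasma gate, Srp14 was -0.0061 on C57BL/6F plates and -0.19 on cells with a count, Srprb -0.67 on C57BL/6F plates, and Sec61g -0.13 in G1 cells, -0.41 on C57BL/6F plates and -0.050 on cells with a count. Sec11a was 0.049 on C57BL/6M plates.

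RLE scaling shifted the median of all genes by -0.101 log2 for plasma against germinal centre B states, and G1 cells by 0.54. DESeq2 called 3629 genes there, against 2367 by edgeR. For pre-plasma against germinal centre B states the median of all genes was -0.71, but -5.89 in G1 cells and -4.74 in pools of at least 10 cells. Members counted in few cells, such as Srprb, Sec63 and Stt3b, have the widest errors.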
